A study of Caenorhabditis elegans with 10 samples.

Results

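The nuclear hormone receptor genes described here are the rows of the deposited table whose WormBase identifiers run from WBGene00003600 to WBGene00003726, the block of identifiers assigned to *nhr-* genes. The block spans 127 identifiers, of which 119 had a row among the 18451 rows of the table. The other 8 were not analysed here. WBGene00003622 was taken as *nhr-23* and WBGene00003623 as *nhr-25*. The other 117 members are given by identifier and without a role, because neither the table nor the RefSeq gene table used here (WBcel235) pairs these identifiers with names. That they encode nuclear receptors rests on the identifier block alone.

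Nuclear hormone receptors are transcription factors that join a zinc-finger DNA-binding domain to a domain that can bind small lipophilic ligands such as sterols and fatty acids. The family is greatly expanded in *Caenorhabditis elegans*, where the RefSeq table lists 283 symbols of the form *nhr-* and a number. *nhr-23*, related to vertebrate ROR and insect DHR3 receptors, and *nhr-25*, related to vertebrate NR5A and insect FTZ-F1 receptors, are both needed for larval moulting and act in the epidermis. The transcript of *nhr-23* is known to rise and fall with each moulting cycle.

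Larvae of stage L2/L3 were raised at 25 °C, and each of the 10 RNA samples was hybridised to 1 Affymetrix *C. elegans* tiling array. The 4 groups were PVD/OLL RNA of *mec-3(e1338)* mutants (3 arrays), PVD/OLL RNA of wild type, strain N2 (3 arrays), whole-animal RNA of *mec-3(e1338)* mutants (2 arrays) and whole-animal RNA of N2 (2 arrays). *mec-3* encodes a LIM homeodomain factor needed for the fate of touch neurons and the branching of PVD dendrites, and the series asked which genes it regulates in PVD. PVD/OLL RNA was poly(A) RNA pulled down with PAB-1, a poly(A) binding protein carrying a 3X FLAG tag and driven by the *ser-2prom3B* promoter in PVD and OLL, whereas total RNA was taken for the whole-animal samples. PVD/OLL RNA thus came from a pull-down and not from sorted cells. The labelled cell types and the mutated gene were not checked against their own rows, since those rows are not paired with names.

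Values are log2 signals made by the authors with RMA, which corrects background, normalizes arrays and summarises probes. Array medians lay between 6.51 and 6.77, and pairs of arrays correlated at 0.847 to 0.984 across all rows. A signal depends on the probes of its gene, so signals of different members do not rank their transcripts. In bulk RNA of this kind, fewer cells of a type and less RNA per cell cannot be told apart. A member is called different where its adjusted p from limma, with Benjamini-Hochberg adjustment over all 18451 rows, lies under 0.05.

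The members spread over most of the signal range of the arrays. Their median signal was 6.92 in *mec-3* PVD/OLL, 6.95 in wild-type PVD/OLL, 6.96 in *mec-3* whole animals and 6.75 in wild-type whole animals. The medians of all rows in the same groups were 6.52, 6.62, 6.65 and 6.71. By the mean over all arrays, 20 members lay in the top 25% of rows, 49 in the next 25%, 36 in the third and 14 in the lowest. The means ran from 3.47 to 10.67.

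The member with the highest mean signal was WBGene00003625, which measured 10.30, 10.54 and 10.19 in *mec-3* PVD/OLL and 10.49, 10.84 and 10.09 in wild-type PVD/OLL. It measured 11.13 and 10.99 in *mec-3* whole animals and 11.22 and 10.91 in wild-type whole animals. None of its 4 group comparisons was called, and the lowest adjusted p was 0.0577 (limma), for *mec-3* PVD/OLL over *mec-3* whole animals. WBGene00003687 followed with a mean of 10.58 over all arrays, and none of its 4 group comparisons was called. Its values in wild-type whole animals, 11.26 and 9.90, lay farther apart than those of its other groups. Of the other bright members, WBGene00003640 and WBGene00003626 had means of 9.16 and 8.99 and were called in none of the 4 group comparisons. WBGene00003628, with a mean of 9.03, was called higher in wild-type PVD/OLL than in wild-type whole animals (log2 0.90, limma adjusted p = 0.0184).

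Between the highest and the lowest of the 10 arrays, the median member differed by 1.42 (log2), against 1.49 for the median of all rows. The range was 3.87 for *nhr-23*, 3.78 for WBGene00003658, 3.74 for *nhr-25*, 3.68 for WBGene00003678 and 3.45 for WBGene00003694. These 5 members had the widest ranges of the 119, and each is described below.

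**Figure D1:**
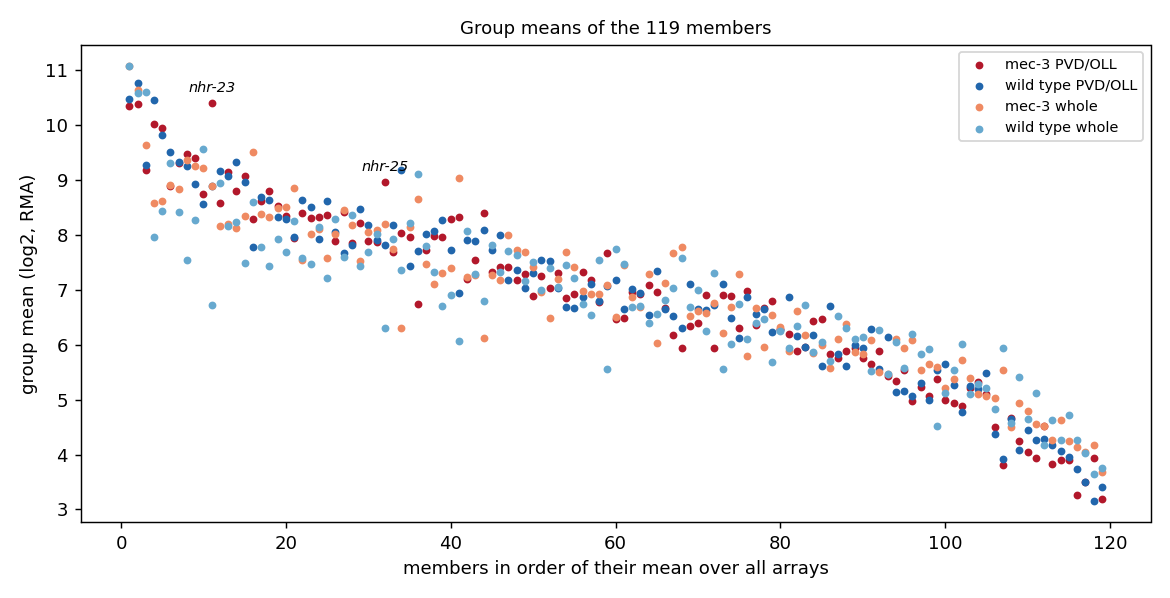
Group mean signal (log2, RMA; vertical axis) of each of the 119 members, in order of the mean over all arrays (horizontal axis), with 1 point per group. The 4 group means of most members lie close together, while those of *nhr-23* run from 6.71 in wild-type whole animals to 10.41 in *mec-3* PVD/OLL.

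*nhr-23* was higher in *mec-3* whole animals than in wild-type whole animals, and higher in PVD/OLL than in whole animals. Its signal was 10.33, 10.52 and 10.37 in *mec-3* PVD/OLL, against 10.04, 8.22 and 8.38 in wild-type PVD/OLL. The 3 *mec-3* arrays lay above all wild-type arrays, but wild-type replicate 1 came close to them while replicates 2 and 3 lay well below. The difference of 1.53 (log2, SE 0.44, 95% interval 0.52 to 2.54) was 2.88-fold and was not called (limma adjusted p = 0.0862). Without wild-type replicate 1 it was 2.11 and was called (limma adjusted p = 0.00235). It was also called with array weights (1.78, limma adjusted p = 0.0196) and with all 10 arrays in the fit (limma adjusted p = 0.0463).

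In whole animals *nhr-23* measured 8.66 and 9.09 in *mec-3* mutants, against 6.77 and 6.65 in wild type. The groups did not overlap, and *nhr-23* was 4.48-fold higher in the mutants (log2 difference 2.16, SE 0.29, limma adjusted p = 0.0147). The call was lost without *mec-3* whole-animal replicate 1 or 2 (limma adjusted p = 0.0798 and 0.142), with differences of 2.38 and 1.95. Subtracting the whole-animal difference between genotypes from that of PVD/OLL gave -0.64 (95% interval -2.02 to 0.75, limma adjusted p = 0.818), which did not pass. Such a value is called the difference of differences below.

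*nhr-25* was called higher in *mec-3* PVD/OLL than in wild-type PVD/OLL. It measured 9.05, 8.62 and 9.21 in *mec-3* PVD/OLL, against 7.66, 8.05 and 7.71 in wild-type PVD/OLL. All mutant arrays lay above all wild-type arrays, and the difference was 2.23-fold (log2 1.16, SE 0.22, limma adjusted p = 0.0207). The call was lost without *mec-3* replicate 1 or 3 and without wild-type replicate 1 (limma adjusted p = 0.0852, 0.0914 and 0.0547), while the difference stayed between 1.03 and 1.11 in those 3 fits. Fitting all 10 arrays together also lost it (limma adjusted p = 0.0913), as did a replicate block (limma adjusted p = 0.0522).

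In whole animals *nhr-25* measured 8.09 and 8.30 in *mec-3* mutants, against 7.14 and 5.47 in wild type. Its 2 wild-type arrays lay far apart, and the difference of 1.89 (SE 0.54, 95% interval 0.58 to 3.21) was not called (limma adjusted p = 0.106). It was 2.73 and called without wild-type replicate 1 (limma adjusted p = 0.0118), and 1.06 and not called without replicate 2 (limma adjusted p = 0.134). The difference was also called when the dimmest 50% of rows were left out (limma adjusted p = 0.0438) and when all 10 arrays were fitted together (limma adjusted p = 0.0167). For *nhr-25* the difference of differences, not called, was -0.74 (limma adjusted p = 0.757), and it was 0.097 without wild-type whole-animal replicate 2, which turns its sign.

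**Figure D2:**
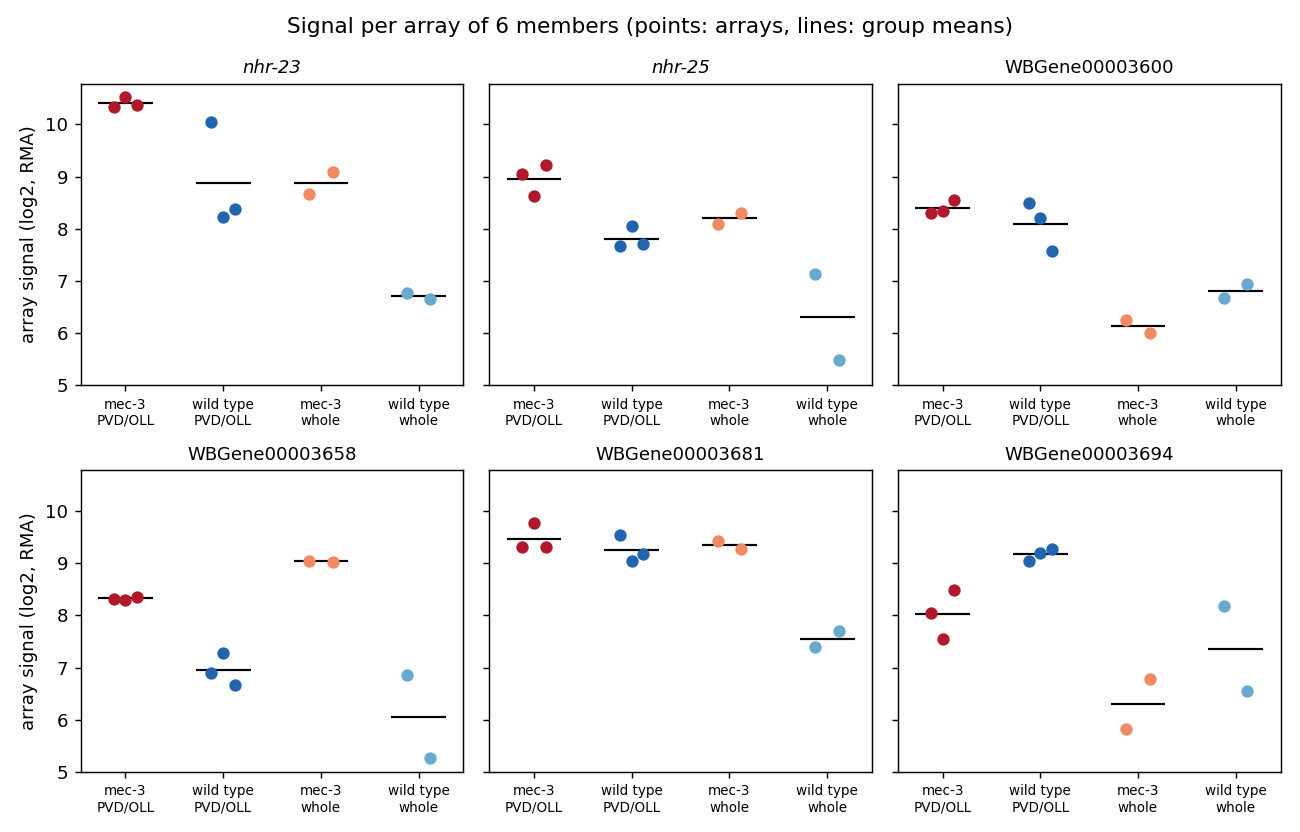
Signal (log2, RMA; vertical axis) on every array in the 4 groups (horizontal axis) for the 5 members called in a *mec-3* comparison and for WBGene00003600, the member with the largest PVD/OLL difference in *mec-3*. Points are arrays and lines are group means. The means of *nhr-23*, *nhr-25* and WBGene00003658 in *mec-3* lie above those in wild type for both kinds of sample, and wild-type PVD/OLL replicate 1 of *nhr-23* lies at 10.04, apart from the other 2 at 8.22 and 8.38.

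In PVD/OLL, 3 of the 119 members differed between *mec-3* and wild type, or 2.52%, where 6.13% of all rows were called. WBGene00003658 and *nhr-25* rose, and WBGene00003694 fell. By direction the share of all rows was 2.58% higher and 3.55% lower. At an unadjusted p under 0.05, 10 members were higher and 13 lower, together 19.3% of the members and 21.1% of all rows. The median difference of the members was -0.05 (log2), against -0.07 over all rows. At least 2-fold differences were seen in 4 of the 119 members, 3 higher and 1 lower, and in 6.66% of all rows.

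WBGene00003658 was the member called in both *mec-3* comparisons. It measured 8.32, 8.30 and 8.36 in *mec-3* PVD/OLL, against 6.89, 7.28 and 6.67 in wild-type PVD/OLL. The mutant arrays lay close together and above all wild-type arrays, and the gene was 2.60-fold higher (log2 1.38, SE 0.20, limma adjusted p = 0.00744). The call held with each PVD/OLL array left out, with adjusted p up to 0.0409 over all settings tried.

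In whole animals WBGene00003658 measured 9.04 and 9.03 in *mec-3* mutants, against 6.86 and 5.26 in wild type. The difference was 7.87-fold (log2 2.98, SE 0.52, limma adjusted p = 0.0313), the largest of any member in a *mec-3* comparison. It was 3.77 without wild-type replicate 1 and 2.18 without replicate 2, and both were called. Without *mec-3* replicate 1 or 2 the call was lost (limma adjusted p = 0.155 and 0.187), as it was after quantile normalization (limma adjusted p = 0.0508).

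WBGene00003694 was the 1 member called lower in *mec-3* PVD/OLL. It measured 8.04, 7.55 and 8.48 there, against 9.05, 9.20 and 9.28 in wild-type PVD/OLL. The groups did not overlap, and the fall was 2.22-fold (log2 -1.15, SE 0.25, limma adjusted p = 0.0359). The call was lost without any 1 of the wild-type arrays and without *mec-3* replicate 1 or 2, with limma adjusted p between 0.0626 and 0.110, and held without *mec-3* replicate 3. It was also lost with all 10 arrays in the fit (limma adjusted p = 0.135). In whole animals it measured 5.83 and 6.78 in *mec-3* mutants, against 8.18 and 6.55 in wild type, and these groups overlapped (log2 difference -1.06, limma adjusted p = 0.382).

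The next lower members in PVD/OLL did not pass. WBGene00003682 measured 6.03, 7.29 and 6.89 in *mec-3* PVD/OLL and 7.63, 8.12 and 7.34 in wild-type PVD/OLL (log2 difference -0.96, limma adjusted p = 0.156). WBGene00003653 measured 6.10, 5.89 and 5.48 in *mec-3* PVD/OLL and 6.70, 7.16 and 6.28 in wild-type PVD/OLL (log2 difference -0.89, limma adjusted p = 0.105), and passed with array weights (-1.13, limma adjusted p = 0.0277). In both, the arrays of the 2 genotypes did not overlap, as was so for 20 lower and 12 higher members, 26.9% of the members. Among all rows 13.9% were lower and 13.5% higher without overlap, 27.4% together.

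The whole-animal comparison of the genotypes called 3 members, again 2.52%, where 5.54% of all rows were called. All 3 were higher: *nhr-23*, WBGene00003658 and WBGene00003681. Of all rows 2.67% were called higher. No member was called lower by limma, where 2.88% of all rows were, and 6 members were lower at an unadjusted p under 0.05, beside 11 that were higher, together 14.3% of the members and 21.5% of all rows. The arrays of the genotypes did not overlap in 29 higher and 21 lower members, against 25.2% and 25.4% of all rows, or 50.5% together. The median difference of the members was 0.03 (log2), against -0.03 over all rows. With no *mec-3* replicate 1 or no *mec-3* replicate 2, limma called 0 members, and the share of all rows was 0.867% and 0.829%. Without wild-type replicate 1 it called 7 members, 5 higher and 2 lower, and 8.62% of all rows.

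WBGene00003681 measured 9.42 and 9.28 in *mec-3* whole animals, against 7.39 and 7.70 in wild-type whole animals. It was 3.49-fold higher in the mutants (log2 1.80, SE 0.28, limma adjusted p = 0.0221), and the call was lost without *mec-3* replicate 1 or 2 (limma adjusted p = 0.155 and 0.162). In PVD/OLL it measured 9.32, 9.77 and 9.32 in *mec-3* mutants and 9.54, 9.04 and 9.18 in wild type, which overlapped (log2 difference 0.21, 95% interval -0.29 to 0.72, limma adjusted p = 0.638). Its signal lay at 9.04 to 9.77 in the other 3 groups and below all of these in wild-type whole animals.

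The most negative whole-animal differences were not called. Among them, WBGene00003702 differed by -1.23 (log2, limma adjusted p = 0.171), which passed with all 10 arrays in the fit (limma adjusted p = 0.0471). Over the 12 other settings its difference ran from -1.80, without wild-type replicate 1, to -0.66, and was not called in 10. WBGene00003602 differed by -0.97 (limma adjusted p = 0.159), which passed with all 10 arrays in the fit (limma adjusted p = 0.0315). Over the 12 other settings its difference ran from -1.35 to -0.60 and was not called in 11.

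The difference of differences of WBGene00003681 was -1.59 (log2, SE 0.34). It had the lowest p of any member (unadjusted p = 0.000749) but did not pass over all rows (limma adjusted p = 0.173, and 0.0995 to 0.416 over the other settings). WBGene00003658 had the most negative value, -1.60 (SE 0.54, limma adjusted p = 0.359), and WBGene00003644 the most positive, 1.08 (limma adjusted p = 0.369). No member was called by limma, where 0.00542% of all rows were, and 8 members, or 6.72%, had an unadjusted p under 0.05, against 9.8% of all rows. WBGene00003698, WBGene00003600 and WBGene00003664 completed the 3 members farthest in each direction, at -1.23, 0.98 and 0.92, with limma adjusted p from 0.444 to 0.601.

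Different arrays underlie the PVD/OLL and the whole-animal differences between genotypes. Of the 119 members, 77 (64.7%) lay on the same side of 0 in both, 35 higher and 42 lower, against 68.6% of all rows. Across the members the 2 differences correlated at r = 0.61 (Spearman 0.45, n = 119 members), and across all rows at 0.71 (Spearman 0.55). Members are not independent of each other, since they share the arrays. *nhr-23*, *nhr-25* and WBGene00003658 lay farthest out in both.

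**Figure D3:**
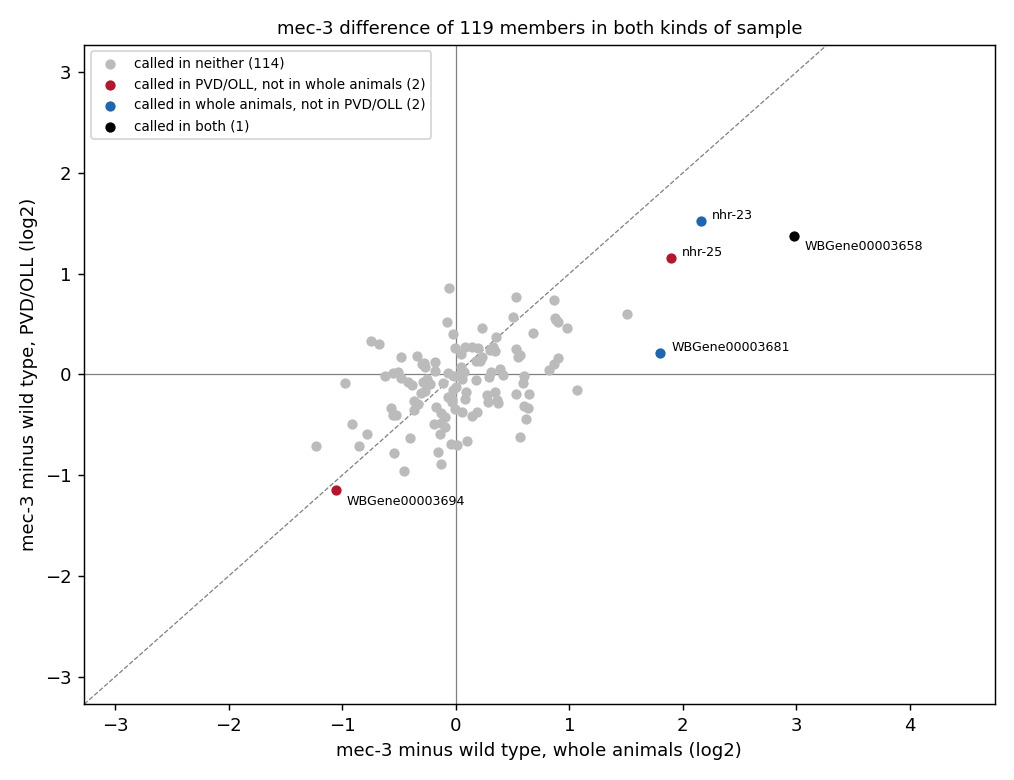
Difference of *mec-3* minus wild type (log2) in whole animals (horizontal axis) and in PVD/OLL (vertical axis) for the 119 members, with the dashed line marking equal differences. Most members lie within 1 unit of 0 on both axes, 77 lie in the lower left or upper right quadrant, and *nhr-23*, *nhr-25* and WBGene00003658 stand at the upper right.

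Setting PVD/OLL against whole animals asked which transcripts the pulled-down RNA holds more of. The pull-down, the poly(A) RNA and the cell type differ together between the 2 kinds of sample, and whether their arrays were normalized together is not given in the sources used here, so these cannot be told apart. In *mec-3* mutants 26 members (21.8%) were called, 12 higher and 14 lower in PVD/OLL, where 26.7% of all rows were called, 7.59% higher and 19.1% lower. In wild type 40 members (33.6%) were called, 24 higher and 16 lower, where 28.6% of all rows were called, 9.61% higher and 18.9% lower. At an unadjusted p under 0.05 the members numbered 38 (31.9%) in *mec-3*, against 41.2% of all rows, and 57 (47.9%) in wild type, against 42.3% of all rows. In *mec-3* the arrays did not overlap in 27 higher and 38 lower members, against 19.9% and 43.6% of all rows, or 63.4% together. In wild type they did not overlap in 41 higher and 32 lower members, against 18.6% and 32.9% of all rows, or 51.5% together.

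The split between higher and lower members depended on the scaling. After quantile normalization it was 12 higher and 7 lower members in *mec-3* and 31 and 11 in wild type, where 19.5% and 25.2% of all rows were called. After centring each array on its median it was 12 and 9 in *mec-3* and 30 and 14 in wild type, where 23.9% and 27.2% of all rows were called. The median of all rows lay at -0.28 (log2) in *mec-3* and -0.21 in wild type as deposited, and the median of the members at -0.05 and 0.08. After quantile normalization the medians of all rows became 0.015 and 0.033 and those of the members 0.11 and 0.23, so the median member changed sign in *mec-3*.

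By the mean over all 10 arrays, called members that were higher in PVD/OLL tended to be brighter than those that were lower, as did all rows. That mean includes the arrays compared, most of them PVD/OLL arrays. A higher PVD/OLL signal therefore raises it, and the pattern is in part built in. Of the 12 higher members in *mec-3*, 11 were brighter than the median of all rows, and of the 14 lower members 7 were. Of the 24 higher members in wild type, 21 were brighter than that median, and of the 16 lower members 7 were. Among all called rows, 82.3% of the higher and 44.3% of the lower ones in *mec-3* were brighter than it, and 84.6% and 36.8% in wild type. The part of signal level in these calls was not tested.

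The 2 genotypes share no arrays in these differences, although 1 estimate of each gene's spread serves both. Of the members, 11 were higher and 8 lower in both genotypes, which is 19 of the 26 called in *mec-3* (73.1%) and 19 of the 40 called in wild type (47.5%). Of all rows 879 were higher and 1987 lower in both, 58.2% of those called in *mec-3* and 54.4% of those called in wild type. In opposite directions 0 members and 16 of all rows were called. The 2 differences had the same sign in 95 members (79.8%), against 79.5% of all rows, and correlated at r = 0.80 across the 119 members (Spearman 0.79), against 0.71 across all rows.

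**Figure D4:**
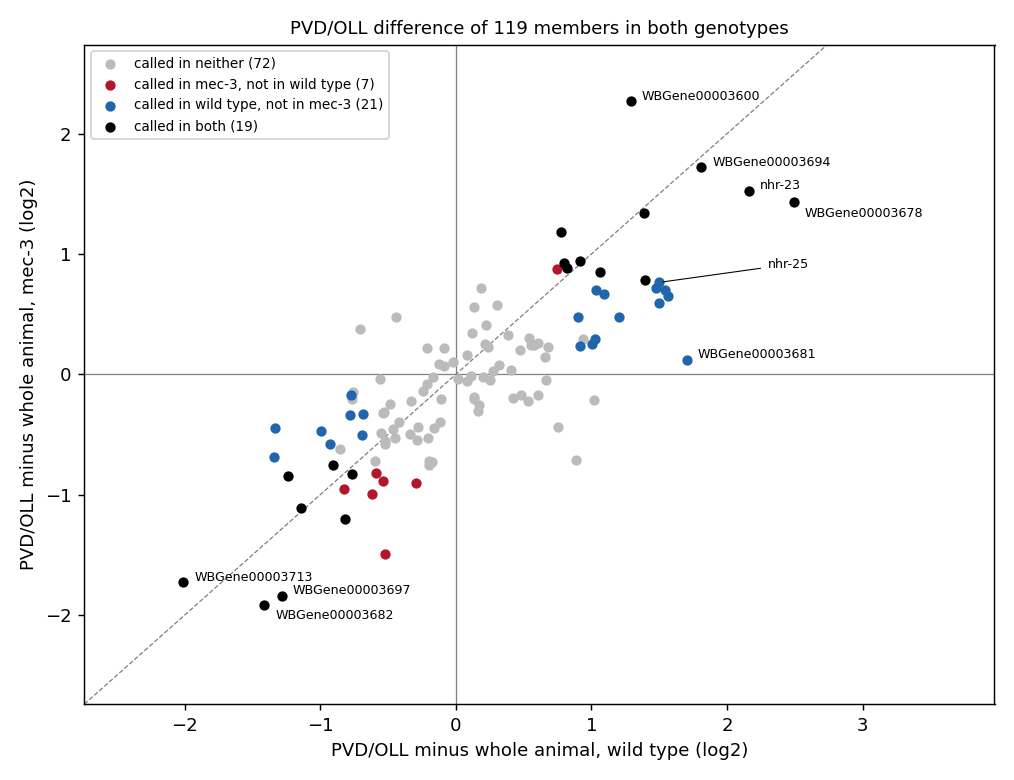
Difference of PVD/OLL minus whole animals (log2) in wild type (horizontal axis) and in *mec-3* (vertical axis) for the 119 members, with the dashed line marking equal differences. The 19 members called in both genotypes run from WBGene00003713 and WBGene00003682 at the lower left to WBGene00003678 and WBGene00003600 at the upper right, and WBGene00003681 lies at 1.71 in wild type and 0.12 in *mec-3*.

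WBGene00003600 had the largest PVD/OLL difference of any member in *mec-3*. It measured 8.29, 8.35 and 8.54 in *mec-3* PVD/OLL, against 6.25 and 6.01 in *mec-3* whole animals, which is 4.82-fold higher (log2 2.27, SE 0.28, limma adjusted p = 0.00112). In wild type it measured 8.50, 8.21 and 7.56 in PVD/OLL, against 6.67 and 6.93 in whole animals, 2.44-fold higher (log2 1.29, SE 0.28, limma adjusted p = 0.00780). In both genotypes all PVD/OLL arrays lay above all whole-animal arrays. The call in *mec-3* held in all 18 other settings.

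WBGene00003678 had the largest PVD/OLL difference in wild type. In *mec-3* mutants it measured 10.20, 9.90 and 9.92 in PVD/OLL, against 8.98 and 8.18 in whole animals, 2.69-fold higher (log2 1.43, SE 0.42, limma adjusted p = 0.0304). It measured 9.77, 10.53 and 11.04 in wild-type PVD/OLL, against 8.55 and 7.37 in wild-type whole animals, 5.62-fold higher (log2 2.49, SE 0.42, limma adjusted p = 0.00293). The groups did not overlap in either genotype. The *mec-3* call was lost without any 1 of the 5 *mec-3* arrays (limma adjusted p from 0.0533 to 0.214) and with a replicate block (1.30, limma adjusted p = 0.0548). The wild-type call held in all 18 other settings, between 1.90 without whole-animal replicate 2 and 3.08 without replicate 1.

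*nhr-23* was higher in PVD/OLL in both genotypes. From the arrays given above, the difference was 2.88-fold in *mec-3* (log2 1.53, SE 0.45, limma adjusted p = 0.0287) and 4.48-fold in wild type (log2 2.16, SE 0.45, limma adjusted p = 0.00646). The *mec-3* call was lost without any 1 of the 5 *mec-3* arrays (limma adjusted p from 0.0613 to 0.164), and the wild-type call held in all 18 other settings, at 1.58 without PVD/OLL replicate 1. The difference of *nhr-25* was 0.77 in *mec-3* and was not called (95% interval -0.12 to 1.65, limma adjusted p = 0.175). It passed in a fit of *mec-3* arrays only (limma adjusted p = 0.0373), which leaves out the wild-type whole-animal arrays that lay far apart (7.14 and 5.47). Over the 18 other settings the difference ran from 0.64 to 0.94 and was not called in 15. In wild type *nhr-25* was 2.83-fold higher (log2 1.50, SE 0.40, limma adjusted p = 0.0199), but the difference was 0.67 and not called without whole-animal replicate 2 (limma adjusted p = 0.168). It was also not called without PVD/OLL replicate 2 (1.38, limma adjusted p = 0.0564) or with the wild-type arrays alone in the fit (limma adjusted p = 0.0632).

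WBGene00003639 gave nearly equal values in both genotypes. It measured 9.88, 9.89 and 10.07 in *mec-3* PVD/OLL, against 8.40 and 8.82 in *mec-3* whole animals (log2 difference 1.34, SE 0.24, limma adjusted p = 0.00394). Its wild-type values were 9.99, 9.67 and 9.78 in PVD/OLL, against 8.68 and 8.17 in whole animals (log2 difference 1.39, SE 0.24, limma adjusted p = 0.00304). The PVD/OLL arrays were higher throughout, and the call in *mec-3* held in the 18 other settings, with limma adjusted p up to 0.0406. The difference between the genotypes was -0.05 (95% interval -0.79 to 0.69).

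WBGene00003694, which fell in *mec-3* PVD/OLL, was higher in PVD/OLL than in whole animals in both genotypes. The difference was 3.29-fold in *mec-3* (log2 1.72, SE 0.45, limma adjusted p = 0.0198) and 3.51-fold in wild type (log2 1.81, SE 0.45, limma adjusted p = 0.0151). Its wild-type difference was 0.996 and not called without whole-animal replicate 2 (limma adjusted p = 0.144). In *mec-3* the call was lost without PVD/OLL replicates 1 or 3 or whole-animal replicate 1 (limma adjusted p = 0.0503, 0.0647 and 0.164).

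Further members higher in both genotypes were WBGene00003656, WBGene00003710, WBGene00003636, WBGene00003709, WBGene00003661 and WBGene00003638. WBGene00003710 was higher by 1.18 (log2) in *mec-3* and 0.78 in wild type. WBGene00003636 was higher by 0.95 in *mec-3* and 0.91 in wild type, at 8.90, 9.23 and 9.31 in *mec-3* PVD/OLL against 8.24 and 8.16 in *mec-3* whole animals. The other 4 were higher by 0.79 to 0.92 in *mec-3* and by 0.80 to 1.40 in wild type. Several of these calls in *mec-3* depended on single arrays. That of WBGene00003709 was lost without any 1 of the 5 *mec-3* arrays (limma adjusted p up to 0.182). Those of WBGene00003661 and WBGene00003636 were each lost in 3 of 18 other settings, all of which left out a *mec-3* array (limma adjusted p up to 0.107 and 0.0848). WBGene00003618 was higher in *mec-3* by 0.87 (limma adjusted p = 0.0381), a call lost in 7 of 18 other settings. In wild type its difference of 0.745 was not called (limma adjusted p = 0.0639). The difference between the genotypes was 0.13 and was not called (limma adjusted p = 0.962).

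**Figure D5:**
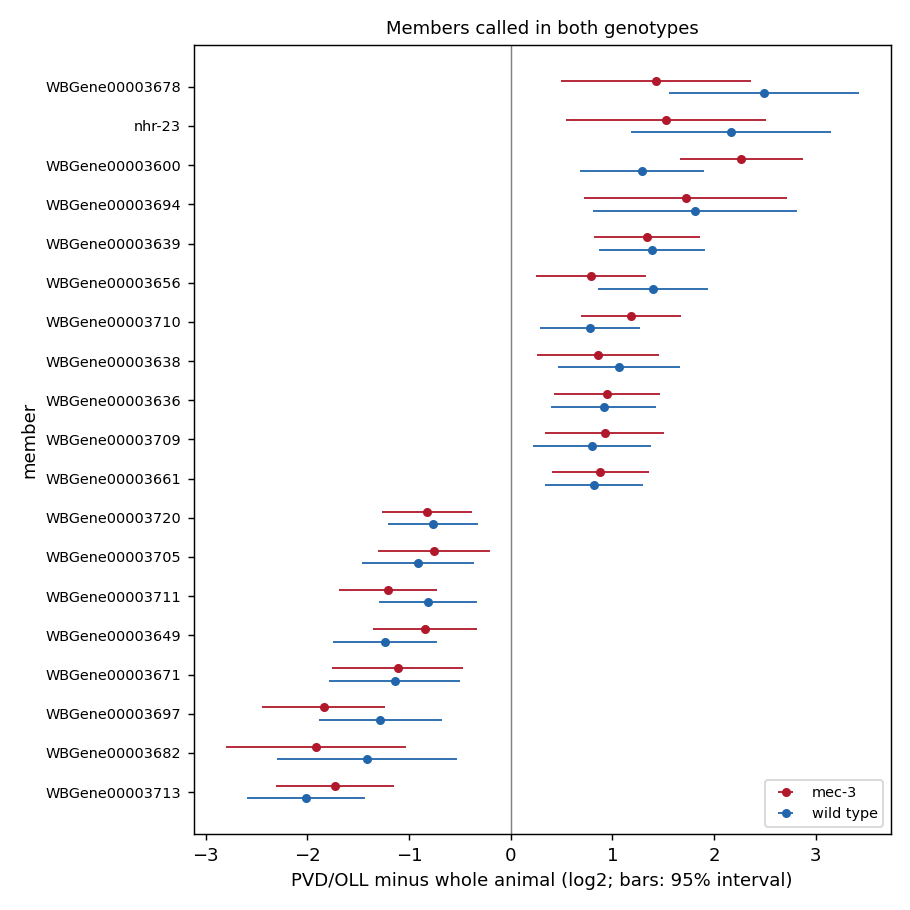
Difference of PVD/OLL minus whole animals (log2; horizontal axis) with its 95% interval for each of the 19 members called in both genotypes (vertical axis), *mec-3* above wild type. The 11 higher members lie between 0.78 and 2.49 and the 8 lower ones between -2.01 and -0.75, and for every member shown the intervals of the 2 genotypes overlap.

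Further members were higher in wild-type PVD/OLL. The difference of WBGene00003681 was 0.12 in *mec-3* (limma adjusted p = 0.741), and in wild type it was 3.26-fold higher in PVD/OLL (log2 1.71, SE 0.24, limma adjusted p = 0.00134). WBGene00003627 was higher by 1.57, WBGene00003726 by 1.54, WBGene00003655 by 1.50 and WBGene00003630 by 1.48 (log2), with limma adjusted p between 0.00381 and 0.0122. The rise of WBGene00003655, measured at 6.59, 7.24 and 7.37 in wild-type PVD/OLL and 6.10 and 5.03 in wild-type whole animals, was 0.97 and not called without whole-animal replicate 2 (limma adjusted p = 0.116). The *mec-3* differences of these 4 members lay between 0.59 and 0.72 and did not pass, and the difference between the genotypes was called for none of the 4 (limma adjusted p from 0.548 to 0.613).

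In wild-type whole animals 16 members (13.4%) differed by at least 2-fold between the 2 arrays, against 11.3% of all rows. Replicate 2 was the lower in 7 of them and the higher in 9, against 3.55% and 7.78% of all rows. *nhr-25*, WBGene00003658, WBGene00003678, WBGene00003694, WBGene00003655 and WBGene00003687 were among the 7. Without replicate 2 the count of called members in wild type was 17 in place of 40, and the share of all rows was 12.5% in place of 28.6%.

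WBGene00003713 had the most negative PVD/OLL difference of any member in wild type, and WBGene00003682 in *mec-3*. WBGene00003713 measured 3.89, 4.00 and 3.56 in *mec-3* PVD/OLL, against 5.20 and 5.89 in *mec-3* whole animals (log2 difference -1.73, SE 0.26, limma adjusted p = 0.00221). Its wild-type values were 3.98, 3.85 and 3.95 in PVD/OLL, against 5.69 and 6.18 in whole animals (log2 difference -2.01, SE 0.26, limma adjusted p = 0.000988). No array of PVD/OLL reached a whole-animal array. Its PVD/OLL signals are among the lowest on the arrays, and no background level is given in the sources used here to set them against.

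WBGene00003697 was lower in PVD/OLL in both genotypes. It measured 6.31, 6.02 and 5.47 in *mec-3* PVD/OLL, against 7.96 and 7.58 in *mec-3* whole animals, 3.58-fold lower (log2 -1.84, SE 0.27, limma adjusted p = 0.00201). In wild type it measured 6.47, 6.10 and 6.32 in PVD/OLL, against 7.72 and 7.44 in whole animals, 2.44-fold lower (log2 -1.28, SE 0.27, limma adjusted p = 0.00773). The difference between the genotypes was not called (-0.56, 95% interval -1.41 to 0.30).

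WBGene00003682 was lower in PVD/OLL in *mec-3* (log2 -1.92, limma adjusted p = 0.00812) and in wild type (log2 -1.41, limma adjusted p = 0.0253). The *mec-3* call was lost without whole-animal replicate 2 (limma adjusted p = 0.0794). The wild-type call was lost with array weights (limma adjusted p = 0.123) and without PVD/OLL replicate 1 or 3 or either whole-animal array (limma adjusted p from 0.0577 to 0.134). Its arrays spread widely, at 6.03, 7.29 and 6.89 in *mec-3* PVD/OLL against 8.14 and 9.16 in *mec-3* whole animals. WBGene00003711 measured 8.32, 8.44 and 8.12 in *mec-3* PVD/OLL, against 9.54 and 9.46 in *mec-3* whole animals, and was one of the brighter members that fell (log2 -1.20, limma adjusted p = 0.00436). WBGene00003649, WBGene00003671, WBGene00003705 and WBGene00003720 were also lower in both genotypes, with differences of -0.85, -1.11, -0.75 and -0.82 in *mec-3* and -1.24, -1.14, -0.91 and -0.77 in wild type. WBGene00003671 lost its *mec-3* call in 4 and its wild-type call in 2 of 17 other settings (limma adjusted p up to 0.100 and 0.143). WBGene00003705 lost its wild-type call in 5 of 17 (limma adjusted p up to 0.103).

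Some falls passed in 1 genotype. WBGene00003632 measured 6.34, 5.99 and 6.22 in *mec-3* PVD/OLL, against 7.56 and 7.79 in *mec-3* whole animals (log2 difference -1.49, limma adjusted p = 0.00671). Wild-type arrays gave 5.86, 6.91 and 6.77 in PVD/OLL, against 7.05 and 7.03 in whole animals (log2 difference -0.53, limma adjusted p = 0.206). The *mec-3* call was lost without whole-animal replicate 2 (limma adjusted p = 0.0538), and the difference between the genotypes was not called (-0.97, limma adjusted p = 0.494). WBGene00003607, at 8.05, 8.10 and 7.68 in *mec-3* PVD/OLL and 8.84 and 8.86 in *mec-3* whole animals, was lower in *mec-3* (log2 -0.90, limma adjusted p = 0.0123) and differed by -0.29 in wild type (limma adjusted p = 0.316). Leaving out whole-animal replicate 1 or 2 of *mec-3* lost its call (limma adjusted p = 0.0639 and 0.0670), and the difference between the genotypes was not called (-0.61, limma adjusted p = 0.548). WBGene00003634, WBGene00003615 and WBGene00003667 were lower in *mec-3* with differences of -0.99, -0.95 and -0.89. These calls were lost in 7 of 17, 8 of 18 and 6 of 16 other settings. Their wild-type differences, -0.62, -0.82 and -0.54, were not called (limma adjusted p = 0.144, 0.067 and 0.1575). The difference between the genotypes was -0.37, -0.13 and -0.35, called for none of them (limma adjusted p from 0.847 to 0.963). WBGene00003667 measured 3.29, 3.21 and 3.27 in *mec-3* PVD/OLL, among the lowest signals on the arrays, with no background level to set them against.

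WBGene00003602, among the brightest members, was lower in wild-type PVD/OLL. In *mec-3* it measured 9.23, 9.09 and 9.21 in PVD/OLL, against 9.62 and 9.62 in whole animals, and the difference of -0.45 was not called (limma adjusted p = 0.183). It measured 9.38, 9.20 and 9.21 in wild-type PVD/OLL, against 10.22 and 10.97 in wild-type whole animals (log2 difference -1.33, SE 0.24, limma adjusted p = 0.00368). The *mec-3* differences of WBGene00003701 and WBGene00003659, -0.68 and -0.47, did not pass, and both were lower in wild type, with differences of -1.34 and -0.996. WBGene00003701 measured 4.24, 3.94 and 4.06 in wild-type PVD/OLL, which are low signals with no background level to set them against. The call of WBGene00003659 was lost without whole-animal replicate 1 (-0.68, limma adjusted p = 0.0824) and in a fit of wild-type arrays only (limma adjusted p = 0.0614). WBGene00003673 was lower in wild type by a difference of -0.93 (limma adjusted p = 0.0281), a call lost in 6 of 17 other settings. The difference between the genotypes was not called for WBGene00003602, WBGene00003701, WBGene00003659 or WBGene00003673 (limma adjusted p from 0.423 to 0.848).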

How the data were processed

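RNA of 10 samples in 4 groups was measured on Affymetrix tiling arrays. The authors deposited log2 values, 1 per gene identifier and array, made with RMA (version unstated), per the submitters' processing notes. That they are log2 was judged from their range. The sources used here do not give gene models, genome build or filters. The number of arrays limits the precision. Replicates are labelled biological, with no word on separate cultures, and p-values measure the spread between them. No row needed imputing, and 0 columns were left out.

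Groups came from the sample titles. The deposited values of all 18451 rows were fitted unfiltered with limma (version 3.58.1; R 4.3.3), with moderated two-sided tests and Benjamini-Hochberg adjustment. *mec-3* was compared with wild type within each kind of sample on its own arrays (6 and 4). PVD/OLL was compared with whole animals, and the difference of differences taken, in 1 fit of all 10 arrays. Intervals are at 95%. The fits were also run on simulated data with few changed rows and the same spread in every group, unlike these data. That run tested the code and not the calls given here.

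The members and lists were chosen with earlier results of these data known. Genes named are *nhr-23* and *nhr-25*, up to 10 called members per direction and comparison with the largest differences (the 3 largest where fewer than 3 were called), and the 10 brightest. WBGene00003638 and WBGene00003720 are named besides, chosen after their values were seen, because the plot of members called in both genotypes shows all 19. Lists of moulting genes, receptor partners and cell type markers were not used, since 0 identifiers matched the 46926 rows of the reference gene table. No sequence is shown for the same reason.

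Alternatives were quantile normalization, centring on the median, removal of the dimmest 50% or 25% of rows, array weights, a robust prior with a trend on intensity, other arrays in the fit, a replicate block and each array left out.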

Additional observations from a re-analysis of the deposited data

How the results depend on the processing

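Counts of called members moved with the arrays and the filter. In PVD/OLL, *mec-3* against wild type called 3 members, 6 with the dimmest 50% of rows left out, where 15.5% of the remaining rows were called, and 9 with array weights, where 9.79% of all rows were. With all 10 arrays in the fit it called 2, where 6.36% of all rows were called. Of these 2, 1 was among the 3: *nhr-25* and WBGene00003694 were lost and *nhr-23* was gained. With each array left out it called 1 to 4, where 2.45% to 5.61% of all rows were called. Without *mec-3* replicate 1 it called 1, where 2.68% of all rows were. In whole animals it called 3, 13 with all 10 arrays in the fit, where 13.4% of all rows were called, and 0 to 7 with each array left out. PVD/OLL against whole animals in *mec-3* called 26, and 11 to 31 with each array left out, of which 14, 14 and 11 came with PVD/OLL replicates 1, 2 and 3 of *mec-3* left out in turn, and 11 with either whole-animal array of *mec-3* left out. In wild type it called 40, 19 with the wild-type arrays alone, where 13.3% of all rows were called, and 17 to 41 with each array left out. The difference of differences called 0 in every setting run. Where 1 whole-animal array of a group was left out, the other was taken to vary like the other groups. Fits with fewer arrays also have fewer degrees of freedom, and otherwise the cause was not tested. Deviations from the group means of same-numbered PVD/OLL arrays correlated at -0.06, 0.03 and 0.04. Those of whole-animal arrays correlated at 0.047 for both numbers, which is 1 value, since 2 arrays deviate from their mean by equal and opposite amounts. Those across kinds of sample lay between -0.04 and 0.19, the highest for replicate 1 of wild type. With 2 or 3 arrays a group, these values cannot show whether replicate numbers pair the arrays. With a replicate block the counts were 2, 3, 23, 34 and 0 in the order above, where 4.57%, 5.58%, 24.7%, 25.2% and 0% of all rows were called. The adjusted p (limma) of *nhr-25* in PVD/OLL was then 0.0522. Of all alternatives for named members, 904 kept their direction and their side of the threshold, called or not, 13 gained the call, 1 turned sign and the rest lost the call. The one that turned was the difference of differences of *nhr-25*, which ran from -1.57 without wild-type whole-animal replicate 1 to 0.097 without replicate 2.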
